A study of Mus musculus with 2 samples.

Results

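Calpains are cysteine proteases that calcium switches on, and calpastatin is the protein that inhibits the classical ones. All 8 genes examined here were on the array: the protease genes Capn1, Capn2, Capn3, Capn5, Capn6 and Capn7, the small subunit gene Capns1, and the calpastatin gene Cast. They were chosen by symbol, as the probes whose single platform gene symbol was one of the 8, which gave 9 probes (2 for Cast) out of 15120 probes with 1 symbol, and 8 of 13709 genes. Expression was compared between fiber cells of the cortex and cells of the epithelium of the mouse lens, with 1 array for each. The lenses of 13-day-old mice (5 mice in the study) were separated with forceps into the capsule with the epithelium that adheres to it and the cortical fibers, and polyadenylated RNA was labelled with biotin. Neither group carried a stated treatment or mutation, and the sources used here name neither the strain nor whether the 5 mice were pooled. The epithelium is the cell layer under the front of the capsule, and its cells elongate into the fiber cells that make up the cortex.

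In textbook accounts, Capn1 and Capn2 encode the catalytic chains of µ-calpain and m-calpain, and each chain pairs with the small regulatory subunit encoded by Capns1. Calpastatin binds and blocks these pairs when calcium is present. Capn3 is known from skeletal muscle as p94, and in the rodent lens as the splice form Lp82, which starts with a first exon of its own. In the lens, calpains are known for cutting crystallins and proteins of the membrane and the cytoskeleton, both in fiber maturation and in calcium-induced cataract.

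Values are the deposited normalized intensities, whose median is 0.998 on both arrays. A gene is called measured on both arrays where both values lie above a floor. Values under that floor, set at 0.5 of the array median (0.499 on both arrays), were not ordered, and a gene that reached the floor on 1 array has only a bound. With 1 array per group there is no replicate, and no test or p-value is possible, so a gene was said to pass when it was at least 3-fold brighter on 1 array and its brighter value was no lower than the median of that array. The error that can be given is the spread between probes of the same gene: over 558 genes with several probes brighter than the floor on each array, the log2 difference had a pooled SD of 1.10 between probes and a median SD of 0.59. A single gene's difference should be read against that spread, which contains no biological variation. In bulk RNA, fewer cells of a type and less RNA per cell cannot be told apart. Levels of different genes were not ranked, because each probe binds with its own strength.

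Of the 8 genes, Capn3 was the single one at least 3-fold higher in cortical fiber cells, and Capn7 was the single one at least 3-fold higher in epithelial cells. By the same rule 9.41% of all 13709 genes passed in cortex and 8.17% in epithelium, so 1 of 8 in each direction is close to the background. The same shares are the background for the counts in the other lists below. Of the 8 genes, 5 (Capn2, Capn3, Capn7, Capns1 and Cast) lay at or above the array median on at least 1 array, and among the 8635 genes that did so 14.9% passed in cortex and 13.0% in epithelium. The subunits of m-calpain and their inhibitor, Capn2, Capns1 and Cast, differed by less than 1.5-fold. Capn1 and Capn5 were dim on both arrays, and Capn6 was at the floor on both. On both arrays 6 of the 8 genes were above the floor, and their median log2 difference, cortex minus epithelium, was -0.04, against 0.03 over all 8351 such genes.

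**Figure D1:**
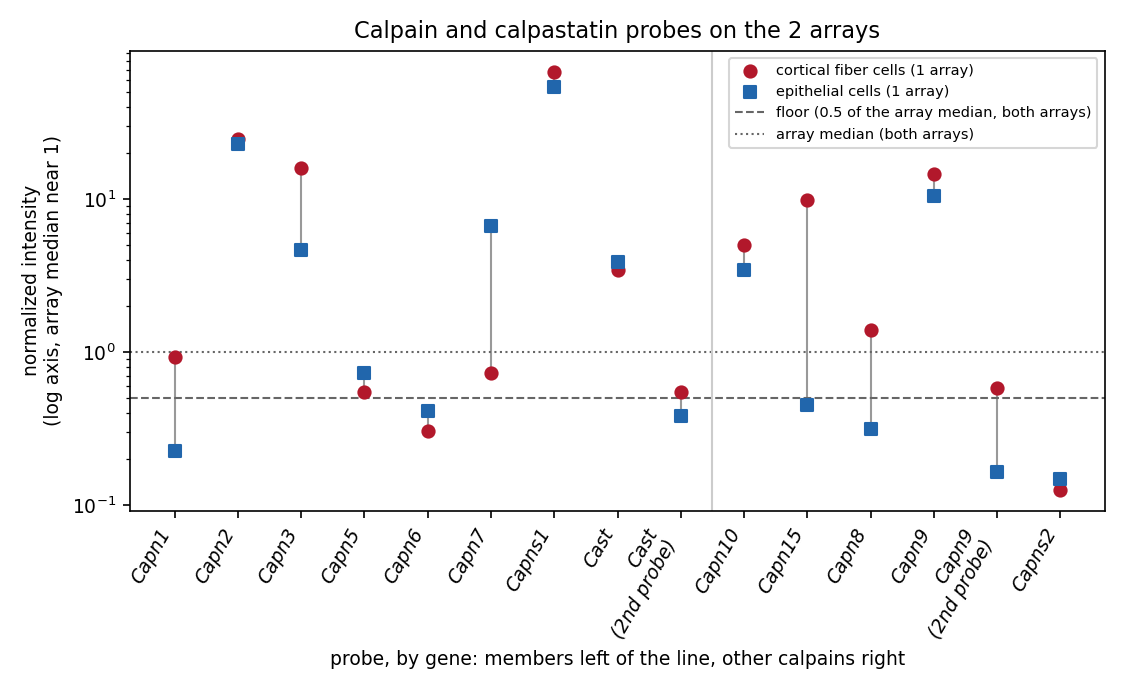
Normalized intensity (log axis) of every calpain and calpastatin probe on the cortex array (circles) and the epithelium array (squares), with the 8 genes left of the vertical line and the other measured calpain genes right of it. Capn3 (15.9 against 4.63) and Capn7 (0.725 against 6.65) have well separated symbols that lie in opposite order, while those of Capn2, Capns1 and the brighter Cast probe nearly meet. Right of the line, the symbols of Capn15 (9.89 against 0.452, the latter under the floor) are also far apart.

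Capn3, which encodes the muscle and lens calpain, stood at 15.9 in cortex and 4.63 in epithelium. Both values lay above their array's median, and the cortex value was the higher by 3.44-fold, a log2 difference of 1.78. That is 1.6 times the pooled SD between probes, and Capn3 has 1 probe here, so no second probe bears on it. Among the 8351 genes measured on both arrays, 928 (11.1%) differed at least as far towards cortex, and among the 1354 whose mean log2 intensity lay within 0.5 of that of Capn3, 179 (13.2%) did. The difference passed the limit narrowly after quantile normalization (1.61) and more clearly after a loess correction on brightness (1.82). It fell under the limit, to 0.67, when the arrays were centred on 64 ribosomal protein genes, whose median log2 intensity was 1.11 higher in cortex.

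Because Capn3 is also a muscle gene, the 9 skeletal muscle markers were read beside it. Of the 7 measured, Acta1 (skeletal α-actin, 17.1 against 0.741) and Myh3 (embryonic myosin heavy chain, 2.94 against the floor, at least 5.89-fold) passed in cortex and none in epithelium. Myh3 no longer passed with a floor at the array median or after centring on ribosomal protein genes. The summed intensity was 29.3 in cortex, most of it from Acta1, and 7.69 in epithelium. Tnni2 (3.15 in cortex, 2.34 in epithelium) and Actn3 (4.31 and 3.66) exceeded each array's median with little difference, and neither passed. Myl1 was under the floor on each array. Ckm, the muscle creatine kinase gene, stood at 0.609 in cortex and Tnnt3 at 0.770, each under the floor in epithelium. The part of these markers in the Capn3 result was not tested.

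The array reads Capn3 through 1 probe, listed under the accession of a reference transcript, whereas RefSeq (GRCm38.p6) has transcripts of Capn3 from starts 13316 bases apart. The probe's own position was not used here, so the cortex value cannot be assigned to one start or the other. The 250 bases before each start are shown because either could be the source of the higher cortex signal, with the letters TGCTGA, the core of the half-site bound by Maf factors, in capitals on either strand (TCAGCA on the other). The upstream window is chr2:120463343-120463592 and the downstream window is chr2:120476659-120476908, both on the + strand.
Capn3 upstream start: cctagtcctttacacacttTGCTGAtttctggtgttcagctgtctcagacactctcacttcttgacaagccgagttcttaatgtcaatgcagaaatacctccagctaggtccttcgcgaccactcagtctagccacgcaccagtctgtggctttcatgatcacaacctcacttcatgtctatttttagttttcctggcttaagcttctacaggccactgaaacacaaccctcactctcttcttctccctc
Capn3 downstream start: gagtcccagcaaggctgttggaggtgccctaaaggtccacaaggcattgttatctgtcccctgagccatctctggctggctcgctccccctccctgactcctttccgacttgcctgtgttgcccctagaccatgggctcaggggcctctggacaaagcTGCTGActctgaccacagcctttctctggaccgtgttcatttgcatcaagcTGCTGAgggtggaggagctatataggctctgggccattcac
The upstream window holds these letters once and the downstream window holds them 2 times. Of 32851 RefSeq windows of this length, 16.1% hold them at least once and 1.66% at least 2 times. Neither window holds GAANNTTC, the core letters of a heat shock element, which 6.69% of all windows hold. Neither holds TATAAA, 1 spelling of a TATA box, which 12.4% hold. Other spellings were not searched, and the downstream window holds TATATA near its end. These matches are descriptions of the letters and not of binding.

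Capn7 showed the opposite difference, and it was the larger of the 2. This gene encodes an atypical calpain without the calcium-binding EF-hand region of the classical chains, known for binding proteins of the endosomal sorting machinery (ESCRT-III). It stood at 0.725 in cortex and at 6.65 in epithelium, a log2 difference of -3.20 or 9.16-fold higher in epithelium. The epithelium value was well above its array's median, whereas the cortex value lay between the floor and the median, so the size of the fold depends on how dim values are treated. With the floor raised to the array median the difference was a bound of at least 6.66-fold. Of the 8351 genes measured on both arrays, 117 (1.40%) lay at least as far towards epithelium, and 40 of 1581 (2.53%) among genes of like brightness. Capn7 passed in each scaling tried, with log2 differences between -4.30 and -3.00.

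The 250 bases before the RefSeq start of Capn7, at chr14:31336388-31336637 on the + strand, are shown for contrast with the windows of Capn3, with no capitals because it holds neither TGCTGA nor GAANNTTC.
Capn7 start: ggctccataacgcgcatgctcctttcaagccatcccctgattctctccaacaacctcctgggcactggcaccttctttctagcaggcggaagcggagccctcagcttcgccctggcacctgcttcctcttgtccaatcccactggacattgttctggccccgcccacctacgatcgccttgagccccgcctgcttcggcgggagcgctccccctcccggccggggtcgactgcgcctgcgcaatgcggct
It holds 18 CpG dinucleotides and 64.8% G and C, against 4 CpG and 46.8% in the upstream Capn3 window and 3 CpG and 57.6% in the downstream one. The median over all windows was 6 CpG and 52.4%, and 21.7% of windows held at least as many CpG as that of Capn7. RefSeq windows were found for 7 of the 8 genes, 12 windows in all, and the rest of them hold the Maf half-site letters in Capn2 alone.

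**Figure D2:**
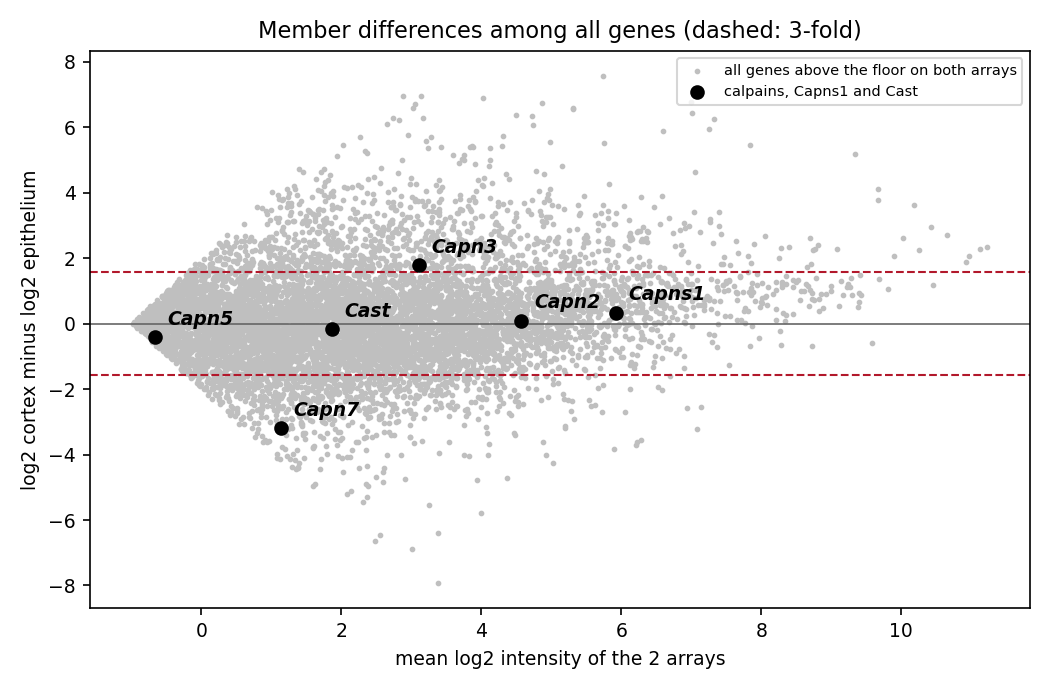
Log2 cortex minus log2 epithelium against the mean log2 intensity of the 2 arrays, for all 8351 genes above the floor on each (grey) and the 6 calpain-system genes among them (black, named), with dashed lines at 3-fold. Capn3 lies just above the upper line within a dense part of the cloud, Capn7 lies towards its lower edge, and the other 4 lie near 0.

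By ratio, the genes nearest to Capn7 were sought among those at or above the median on both arrays, which Capn7 itself was not in cortex. They were Tead2 (-3.21), Slc2a1 (-3.18), Anxa1 (-3.22), Mdk (-3.15) and Ptms (-3.13), as log2 differences. Likeness was measured as the gap in log2 difference, over 2 samples alone, and 32 genes of that set lay within 0.25 of Capn7. Markers of tissue next to the lens were read beside Capn7. Of 8 measured ciliary body markers, Ptgds, Msx1 and Gpx3 passed in epithelium and Opn3 in cortex, with Zic1, Wfdc1 and Cldn2 at the floor on both arrays. Zic2 was close on the 2 arrays, at 18.7 in cortex and 20.9 in epithelium. The summed intensity was 31.6 in cortex, most of it from Zic2, and 155 in epithelium, most of it from Ptgds (123). The call of Gpx3 ended when the floor was raised to the array median, and that of Opn3 after centring on ribosomal protein genes. Of 8 pigment cell markers, Oca2 and Tyrp1 passed in epithelium and Dct in cortex, with sums of 6.06 and 15.4, and Tyr was at the floor on both. Pmel stood at 0.760 in cortex and 1.59 in epithelium, and Rpe65, Slc45a2 and Mitf were above the floor in cortex alone, none of which passed. The call of Dct ended under both of the same alternatives, and Pmel passed in epithelium after the centring. The part of these tissues in the Capn7 result was not tested.

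The m-calpain genes were close on the 2 arrays. Capn2, the catalytic chain, stood at 24.6 in cortex and 23.0 in epithelium, 1.07-fold apart. Capns1, the small subunit shared by the classical calpains, stood at 68.2 in cortex and 54.2 in epithelium, 1.26-fold apart. Both genes were bright on both arrays, and their log2 differences of 0.09 and 0.33 are well inside the spread between probes. Their direction is not settled, since quantile normalization gave -0.33 for Capn2 and -0.42 for Capns1, and the loess correction -0.17 and -0.30.

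Capn1, the catalytic chain of µ-calpain, was dim. It stood at 0.927 in cortex, just under that array's median, and at 0.226 in epithelium, under the floor. The bound of at least 1.86-fold towards cortex did not pass, and with the floor at the array median Capn1 was at the floor on both arrays.

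Cast, the calpastatin gene, was read by 2 probes. The brighter stood at 3.44 in cortex and at 3.86 in epithelium, a log2 difference of -0.17. The dimmer stood at 0.544 in cortex and under the floor in epithelium (0.381), which gives a bound of at least 1.09-fold in the other direction. The calpastatin gene has several transcript starts in RefSeq (4 windows), and which transcripts each probe reads is not known here. The brighter probe did not come near the 3-fold limit. The dimmer probe did not pass, but its bound sets no upper limit on the fold.

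Of the remaining genes, Capn5, which encodes an atypical calpain mutated in an inherited human vitreoretinal disease, stood at 0.548 in cortex and 0.728 in epithelium. Both values were above the floor and under the median, and the log2 difference was -0.41. Capn6, whose product lacks the catalytic cysteine and is known for binding microtubules, stood at 0.306 in cortex and 0.412 in epithelium, under the floor on both, so no difference is given. Neither gene can be ordered between the 2 cell populations from these values.

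Setting each calpain against Cast on the same 2 arrays removes any single scaling factor of an array. Cast serves here as a common reference, since the inhibition described above is that of the Capn1 and Capn2 pairs with Capns1. For Capn3 and Capn7 the ratio is not a measure of protease against inhibitor. On that measure Capn3 gained 3.86-fold on Cast from epithelium to cortex (log2 1.95), and Capn7 lost ground by a log2 difference of -3.03. Capns1 (0.50) and Capn2 (0.26) moved little relative to Cast, and both turned negative after quantile normalization (-0.20 and -0.11). Capn1, under the floor in epithelium, has only a bound relative to Cast, of at least 2.08-fold towards cortex (log2 1.06). The value for Capn3 was 1.83 after quantile normalization, 1.84 after the loess correction and 1.80 with the mean over probes. The other treatments could not move it. Centring on the ribosomal protein genes leaves such a ratio as it is, and Capn3 and the brighter Cast probe lay above every floor.

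**Figure D3:**
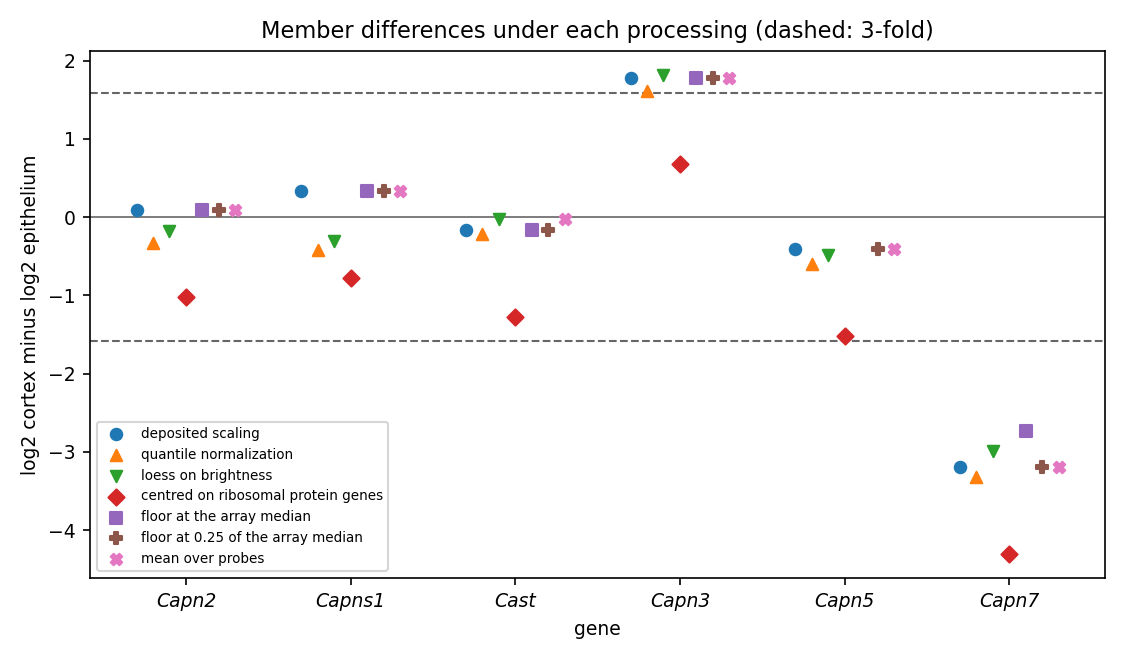
Log2 cortex minus log2 epithelium of the 6 genes measured above the floor on each array, under the deposited scaling and 6 other treatments of the values, with dashed lines at 3-fold; a treatment that leaves a gene without a value above the floor has no symbol. Capn7 is under the lower line in every one, Capn3 is above the upper line in all but the centring on ribosomal protein genes (0.67), and Capn2 and Capns1 lie on both sides of 0.

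Calpain genes outside the 8 were read from a list of 8, of which 5 were measured. Capn15, an atypical calpain with zinc fingers whose loss is known to cause eye defects, stood at 9.89 in cortex and under the floor in epithelium (0.452), at least 19.8-fold higher in cortex. It passed in each treatment, with at least 9.19-fold after centring on ribosomal protein genes and at least 9.91-fold when the floor was raised to the array median. Capn8, known from the stomach, stood at 1.40 in cortex and under the floor in epithelium, a bound of at least 2.80-fold that did not pass. It passed, at 4.45-fold, when the floor was lowered to 0.25 of the array median. Capn10 (5.03 against 3.43) and Capn9 (14.7 against 10.5) differed by less than 1.5-fold, and Capns2, a second small subunit gene, was at the floor on both arrays. Capn15 thus had a larger difference towards cortex than Capn3, from 1 probe.

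Relatives of Capns1 with the same penta-EF-hand fold did not pass. Pdcd6 (ALG-2, a calcium sensor of the endosomal sorting machinery) stood at 11.2 in cortex and 32.9 in epithelium, 2.95-fold apart and just under the limit. Pef1, its partner, stood at 11.2 and 24.8, and sorcin (Sri) at 20.4 and 18.4, with a second probe at 1.54 and 2.81. Gca (grancalcin) was above the floor in cortex alone, at 0.569. Pdcd6 passed in epithelium after quantile normalization, the loess correction or centring on ribosomal protein genes, and Pef1 after that centring.

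Among calcium-handling genes, 3 of 15 measured passed in cortex and none towards epithelium, beside 9.41% and 8.17% of all genes. The median log2 difference of the calcium-handling genes was 0.32, over the 9 above the floor on both arrays. S100a6, a small calcium-binding protein gene, stood at 695 in cortex and 141 in epithelium (4.95-fold). Itpr2, an inositol trisphosphate receptor that releases calcium from internal stores, stood at 6.79 and 1.58 (4.29-fold). A second Itpr2 probe also passed (4.46 against 1.16), another differed by 1.70-fold with both values under the median, and the last was near the floor. Atp2a1, a calcium pump of the sarcoplasmic reticulum, stood at 2.75 and 0.731 (3.76-fold). Calm3 and Calm2, which encode the same calmodulin protein, differed in opposite directions without passing (log2 1.21 and -0.88). Atp2a1 no longer passed when the floor was raised to the array median, nor Itpr2 when its probes were averaged. S100a6 no longer passed after quantile normalization or the loess correction. With the arrays centred on ribosomal protein genes none of the 3 passed, while Calm2 and S100a10 passed in epithelium there and after quantile normalization.

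Of 12 measured genes for cytoskeletal substrates of calpains, Bfsp1 and Map1b passed in cortex and Sptb in epithelium. Over all genes, 9.41% passed in cortex and 8.17% in epithelium. The median log2 difference of these substrate genes was 0.12 over the 9 above the floor on both arrays. Bfsp1 encodes filensin of the beaded filament (738 against 12.5). Map1b, a microtubule-associated protein gene, stood at 2.68 in cortex and under the floor in epithelium, at least 5.38-fold, and no longer passed when the floor was raised to the array median or after centring on ribosomal protein genes. Sptb, the erythroid β-spectrin gene, stood at 25.6 in cortex and 100.5 in epithelium. The gene of αII-spectrin, a widely used read-out of calpain cleavage, Sptan1, stood at 404 in cortex and 186 in epithelium (2.17-fold), and vimentin (Vim) at 306 and 286, neither of which passed. Ezr (ezrin, a membrane linker) passed in epithelium in each of the 3 other scalings, and Tln1 (talin) after the centring. Of 10 genes for lens proteins of families cut by calpains (α- and β-crystallins, Mip and Gja3), 9 passed in cortex, with a median of 2.28. The 8 crystallins among them no longer passed after quantile normalization or the loess correction, where Mip alone did, and Mip and Cryba4 passed with the arrays centred on ribosomal protein genes.

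**Figure D4:**
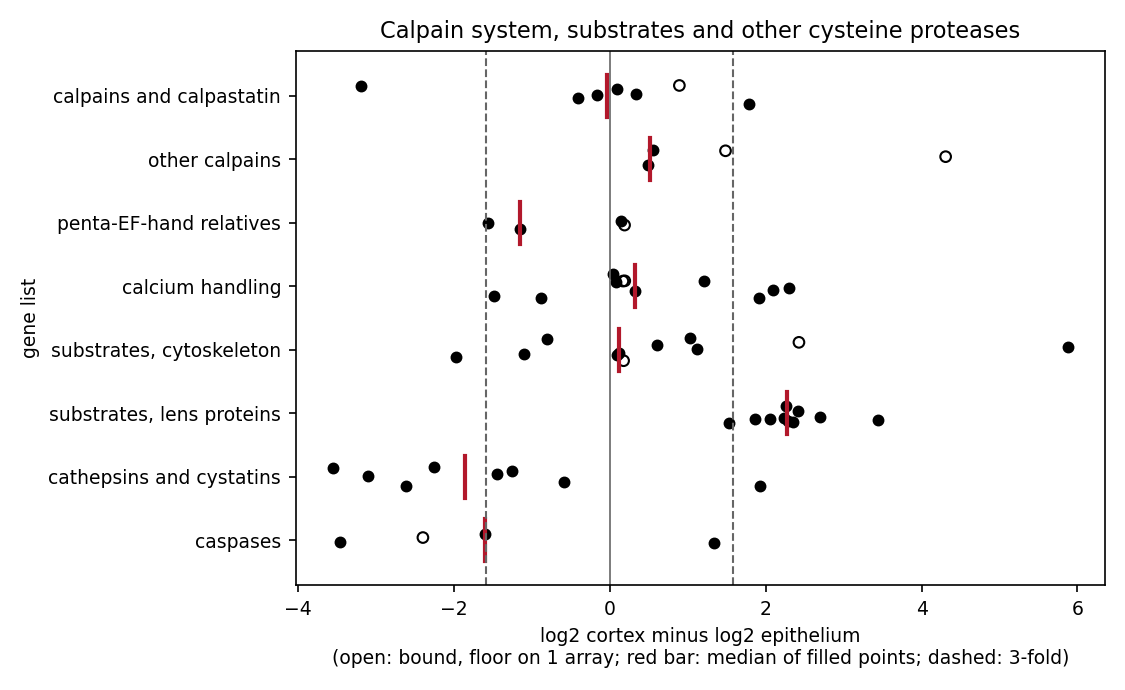
Log2 cortex minus log2 epithelium of each gene above the floor on at least 1 array in 8 gene lists, with filled points for genes above the floor on both arrays, open points for bounds, red bars for the median of the filled points and dashed lines at 3-fold. The genes of the calpain and calpastatin row spread around 0 with Capn3 and Capn7 outside the lines. Among the other calpains Capn15, a bound at 4.31, lies outside the line on the cortex side. Most cathepsin and cystatin genes lie towards epithelium and the lens protein genes towards cortex.

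Other cysteine proteases were set beside the calpains. Of 10 measured genes for cysteine cathepsins and their cystatin inhibitors, 4 passed in epithelium (Ctsl, Ctsh, Ctsc and Ctsb, between 4.76-fold and 11.8-fold) and 1 in cortex (Cst6, a cystatin, 5.02 against 1.31). Cst3, the secreted cystatin C, stood at 120 in cortex and 287 in epithelium, under the limit. Cst3 and Ctsf passed in epithelium after quantile normalization or the loess correction, which made 6 genes. Centring on ribosomal protein genes made it 7, with Ctsz, and ended the call of Cst6. Of 6 caspase genes, Casp6, Casp8 and Casp2 passed in epithelium and none in cortex. Over all genes, 8.17% passed in epithelium and 9.41% in cortex, the background for this count and that of the cathepsins and cystatins. Casp6 has a second probe that differed in the other direction (1.52 against 0.863) and it no longer passed when its probes were averaged, and Casp8 (2.63 against the floor, at least 5.27-fold) no longer passed when the floor was raised to the array median. The median log2 difference was -1.85 for the cathepsins and cystatins (8 genes) and -1.60 for the caspases (3 genes), beside -0.04 for the 6 calpain-system genes. The difference between these lists was not tested.

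The sample labels were checked against defining markers. Of 8 measured fiber markers, 6 passed in cortex and none in epithelium, and of 8 epithelial markers, 6 passed in epithelium and none in cortex. In each of the 3 other scalings 4 fiber markers passed, without Grifin and Crygs, and the same 6 epithelial markers did. Every measured fiber marker was above the median in the epithelium sample too, from Lgsn (2.91) to Crygs (988). Of the epithelial markers, Foxe3, Cdh1, Aqp1 and Gja1 were at the floor in cortex, whereas Pdgfra was above the median there (2.17). Npnt, which did not pass, lay the other way, at 1.17 in cortex and under the floor in epithelium. The free text of the sample records speaks of fetal liver. Of 8 measured liver markers Ahsg passed in cortex (185 against 16.9) and Apoa1, Ttr and Serpina1a were at the floor on both arrays. Afp, Apoa2 and Trf were above the floor on both without passing, though Trf passed in epithelium after centring on ribosomal protein genes. Afp (0.660 in cortex, 0.680 in epithelium) and Apoa2 (0.708 and 0.888) were under the median on both arrays. Of 6 erythroid markers and 6 retina markers none passed, with summed intensities of 2.93 to 6.45 on either array. Crx (1.51 against 0.513) passed in cortex after the loess correction, and Klf1 with the floor at 0.25 of the array median.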

How the data were processed

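The deposited table holds 1 normalized intensity per probe for each of 2 samples. Per the labels, biotin-labelled complementary RNA was hybridized to a 1-colour CodeLink mouse array and the image was read with the CodeLink software. The intensities are linear, and 161 values in cortex and 74 in epithelium lie below 0; the sources used here do not give the background and scaling steps of the authors, nor a detection call. The deposited scaling was kept. Of 19819 probes, 15120 had 1 gene symbol, 38 several and 4661 none, and none of the 38 included a calpain or Cast; all 8 symbols matched RefSeq by Entrez identifier. The 100 probes with a missing value were left out. Values were floored at 0.5 of the array median and log2 was taken. A gene's value is its probe with the highest mean log2 value, and differences are cortex minus epithelium.

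No test across samples was possible, and the number of arrays limits precision. The genes, the lists and the 3-fold rule were chosen with earlier results of these data known. Named genes are the 8, every other calpain and penta-EF-hand gene, up to 4 passing genes per further list, and the 5 genes nearest to the largest difference; Sptan1, Vim, Cst3, Calm2, Calm3, S100a10, Ctsf, Ctsz, Ezr and Tln1 were named after their values were seen. The crystallins were counted only. Alternatives were quantile normalization, a loess correction (span 0.3) of the difference, floors at the array median and at 0.25 of it, centring on ribosomal protein genes, limits of 2-fold and 5-fold, the mean over probes, and no brightness requirement. Python 3.11.15 was used with numpy 2.4.6, pandas 2.3.3, statsmodels 0.14.6 and matplotlib 3.10.9.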

Additional observations from a re-analysis of the deposited data

How the results depend on the processing

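The direction and the side of the 3-fold limit of Capn3 and Capn7 held under quantile normalization, loess, both other floors and the mean over probes. Each of them has 1 probe, so the mean over probes could not move them. Capn3 lay above every floor on both arrays, so the floors could not move it either. Centring on ribosomal protein genes shifted the median log2 difference of all 8351 genes measured on both arrays from 0.03 to -1.08 and ended the call of Capn3 (0.67), so that 0 of the 8 genes passed in cortex. It moved Capn2 to -1.01, Capns1 to -0.78, Cast to -1.28 and Capn5 to -1.52, none of which passed, and it left Capn1 with no bound towards cortex (-0.22). Under it, 13.3% of the calls over all genes were in cortex (489 against 3196), beside 53.5% with the deposited scaling. Quantile normalization moved that median to -0.16. A fold limit of 5 left 0 of the 8 in cortex and 1 in epithelium, and over all genes 698 and 477 passed; a limit of 2 passed 2243 and 2101. Dropping the requirement that the brighter array lie at or above its median changed no count. That check could not change one, because any value that passes the fold limit over the floor already lies above the array median. With the floor at the array median, Capn1 and Capn5 were at the floor on both arrays and have no value. Capn6 has none with the floor used throughout. No paired analysis was possible because each group holds 1 sample. Signal near the floor limits Capn1, Capn5, Capn6 and the cortex value of Capn7.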

Other observations

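Probes listed under 1 accession need not read alike. Capn9, which encodes a calpain known from the digestive tract, has 2 probes with the same listed accession. One stood at 14.7 in cortex and 10.5 in epithelium, and the other at 0.584 in cortex and under the floor in epithelium (0.165). A single probe's level, such as that of Capn1, Capn7 or Capn15, has no such second reading here.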
